A study of Mus musculus with 16 samples.

Results

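The transcripts of the class IIa histone deacetylases and of the genes that work with them were followed in mouse skeletal muscle. The set was named gene by gene and held 9 of the 24454 genes listed in the counts table, found there by Entrez identifier. It comprised the class IIa deacetylases *Hdac4*, *Hdac5*, *Hdac7* and *Hdac9*, the MEF2 transcription factors *Mef2a*, *Mef2c* and *Mef2d*, the HDAC4 target *Dach2* and the salt-inducible kinase *Sik1*. All 9 passed the filter on low counts, which left 15487 genes for testing.

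RNA was sequenced from *gastrocnemius* muscle of 16 mice that were 3 months old. HSALR mice, a model of myotonic dystrophy type I, carry a human skeletal actin transgene with an expanded CTG repeat that is expressed in skeletal muscle, and the animals were homozygous mice of line LR20b on the FVB/N background. FVB/N mice without the transgene served as controls. Mice received vehicle or AICAR, an agonist of AMP-activated protein kinase, at 500 mg/kg for 7 days, which gave 3 vehicle-treated FVB mice, 3 AICAR-treated FVB mice, 5 vehicle-treated HSALR mice and 5 AICAR-treated HSALR mice. Each library came from a mouse with its own number. The sources used here do not give the sex of the mice. The transgene, which is a human sequence, has no count of its own among the mouse genes, so the genotype labels could not be checked by it. The question that the design poses for these genes is how their transcript levels differ between genotypes, how they respond to AICAR, and whether the response differs between genotypes.

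Class IIa deacetylases have little catalytic activity of their own. They bind MEF2 factors and, together with corepressor complexes that hold HDAC3, repress MEF2 target genes. Calcium/calmodulin-dependent kinases, protein kinase D, AMP-activated protein kinase and salt-inducible kinases phosphorylate them, which lets 14-3-3 proteins hold them outside the nucleus. In skeletal muscle, HDAC4 represses *Dach2* after denervation, and DACH2 in turn represses *Myog*, which encodes myogenin, an activator of synaptic genes. These proteins are controlled largely by phosphorylation and location, which transcript counts do not show.

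The libraries held 64890014 to 81987726 counted reads. Transcripts are given as normalized CPM, counts scaled to a common library size that was corrected by the trimmed mean of M values, or as normalized CPM per kilobase where genes are compared with each other. Skeletal muscle fibre markers summed to 107510 to 159350 normalized CPM over the 16 libraries, and their ranges overlapped between the 4 groups. At an adjusted p under 0.05 in edgeR, 2 of the 7 were higher in HSALR than in FVB muscle after vehicle. After AICAR 2 were higher and 1 lower, and 1 fell with AICAR in HSALR muscle. Of all genes 26.9%, 21.8% and 26.6% passed in these comparisons. A sum does not show opposite changes. Of the markers, *Acta1* was at 24411 to 31273 normalized CPM in FVB and 32834 to 37705 in HSALR mice. Whether transgene reads were counted there was not tested. The epidermal keratin *Krt14* exceeded 1 normalized CPM in 6 libraries (2.98 to 32.2), of which 4 were from vehicle-treated HSALR mice, 1 from a vehicle-treated and 1 from an AICAR-treated FVB mouse, and none from AICAR-treated HSALR mice. In the remaining 10 libraries it was at most 0.083 normalized CPM. Because whole muscle was sequenced, fewer cells of a type and less RNA per cell cannot be told apart.

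To show sequences at annotated transcript starts of the genes, promoter windows of RefSeq (build GRCm38) were searched for the site that MEF2 proteins bind, for the cyclic AMP response element TGACGTCA and for the E-box CAGCTG, on both strands. Windows of 300 bases were given for 8 of the 9 genes, 15 windows in all. The MEF2 site was found in 2 of these windows and in 3.19% of the 32851 windows of all genes. Both are printed here, with the windows of *Hdac4* and *Mef2d*, whose transcripts rose with AICAR as described further on. The stretch runs from 190 bases before to 10 bases after the annotated start, 5′ to 3′ on the strand of the gene, and capitals mark the MEF2 site. The starts shown for *Hdac4*, *Mef2a* and *Mef2d* lie inside the gene spans given with the values below, and that of *Hdac5* is the outer end of its span.
Hdac4 (chr1:92180332-92180531, minus strand): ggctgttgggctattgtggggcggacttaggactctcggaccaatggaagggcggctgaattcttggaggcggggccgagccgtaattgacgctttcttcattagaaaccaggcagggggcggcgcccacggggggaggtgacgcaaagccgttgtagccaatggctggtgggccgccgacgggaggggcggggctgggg
Hdac5 (chr11:102230163-102230362, minus strand): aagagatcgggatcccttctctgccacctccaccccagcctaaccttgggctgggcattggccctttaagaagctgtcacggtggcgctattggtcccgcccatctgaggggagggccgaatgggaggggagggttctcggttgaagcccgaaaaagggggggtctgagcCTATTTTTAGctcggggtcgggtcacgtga
Mef2a (chr7:67372849-67373048, minus strand): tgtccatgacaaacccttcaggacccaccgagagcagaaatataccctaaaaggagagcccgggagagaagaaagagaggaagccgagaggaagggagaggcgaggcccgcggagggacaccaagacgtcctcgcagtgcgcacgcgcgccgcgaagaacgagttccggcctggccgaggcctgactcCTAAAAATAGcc
Mef2d (chr3:88142182-88142381, plus strand): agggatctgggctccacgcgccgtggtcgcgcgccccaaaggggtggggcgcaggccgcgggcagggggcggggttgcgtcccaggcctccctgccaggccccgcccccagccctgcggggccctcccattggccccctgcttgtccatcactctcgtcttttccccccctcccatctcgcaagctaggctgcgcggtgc

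In *Hdac5* the MEF2 site began 20 bases and ended 11 bases before the start. In *Mef2a* it spanned the start itself. The cyclic AMP response element was in none of the 15 windows, against 1.79% of all windows, and the E-box was in 3 windows, 1 of *Hdac7* and 2 of *Hdac9*, against 16.3% of all windows. These matches describe the letters of the windows and do not show binding.

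Scaled by the gene length given in the counts table, the 9 transcripts spanned a wide range in vehicle-treated FVB muscle. *Mef2c*, encoding the MEF2 factor tied most closely to muscle differentiation, was the most abundant at 153 ± 11.9 normalized CPM per kilobase (SD, n = 3). *Mef2d* followed at 38.9 ± 1.48, *Mef2a* at 34.2 ± 3.52 and *Hdac5* at 19.4 ± 0.17. *Sik1* at 10.6 ± 3.63 and *Hdac4* at 6.70 ± 0.55 overlapped, while *Hdac7* at 3.72 ± 0.10, *Hdac9* at 1.96 ± 0.71 and *Dach2* at 0.49 ± 0.17 were each below the gene before them without overlap. In AICAR-treated FVB muscle the mice also overlapped for *Mef2d* and *Mef2a*, and for *Hdac5* and *Sik1*. In both HSALR groups *Hdac4* ranked above *Sik1*, with overlapping mice after vehicle and without overlap after AICAR. In AICAR-treated HSALR muscle *Hdac4*, at 14.4 ± 1.34 normalized CPM per kilobase (SD, n = 5), overlapped with *Hdac5* at 15.2 ± 1.65, whereas in the vehicle-treated HSALR mice they did not overlap (8.69 ± 2.04 against 16.2 ± 2.76).

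**Figure D1:**
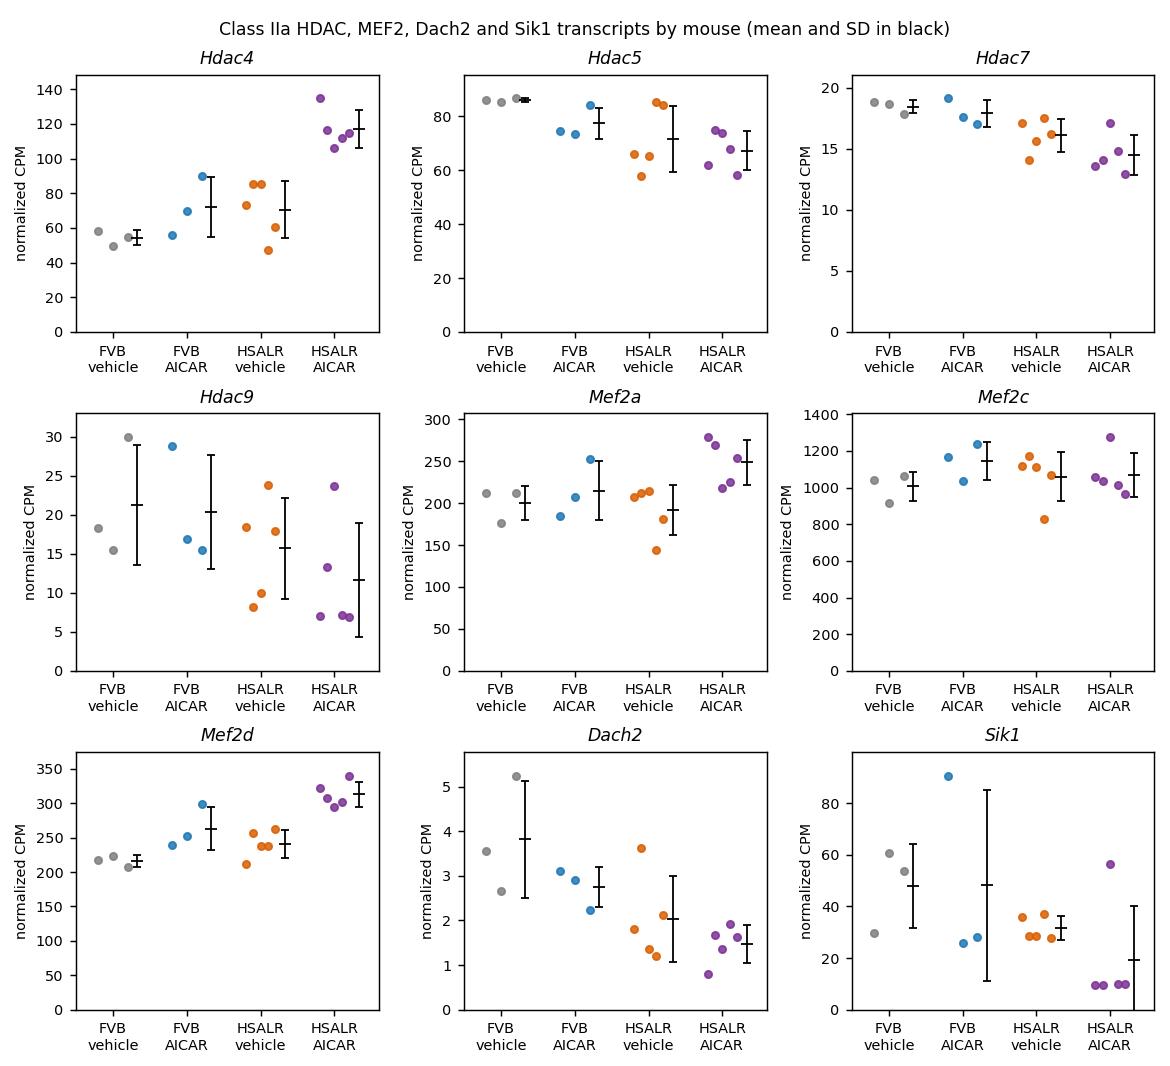
Normalized CPM of the 9 genes (y axis, linear from 0) in each of the 16 mice (coloured points), by genotype and treatment, with the group mean and SD in black to the right of the points. *Hdac4*, *Mef2a* and *Mef2d* of the 5 AICAR-treated HSALR mice lie above all 5 vehicle-treated HSALR mice, and 1 AICAR-treated HSALR mouse, at 56.6 normalized CPM of *Sik1*, stands apart from the other 4. The lower end of the SD bar of *Sik1* in that group is hidden below 0.

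*Hdac4* (chr1:91928779-92195702, minus strand) encodes the class IIa deacetylase that accumulates in muscle when neural activity is lost. It measured 58.5, 49.7 and 54.8 normalized CPM in vehicle-treated FVB mice and 56.2, 69.9 and 90.1 in AICAR-treated FVB mice. It measured 73.4, 85.3, 85.4, 47.3 and 60.5 in vehicle-treated HSALR mice and 135, 117, 106, 112 and 115 in AICAR-treated HSALR mice. Thus all 5 AICAR-treated HSALR mice were above the 11 other mice, and the 2 lowest of the vehicle-treated HSALR mice, S458 and S459, lay near the FVB mice.

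*Hdac4* rose with AICAR in HSALR muscle, with a log2 fold change of 0.73 (SE 0.15, 95% interval 0.41 to 1.05, adjusted p = 0.0025 by the quasi-likelihood test of edgeR, adjusted after Benjamini and Hochberg). In this comparison 3 of the 9 genes passed the threshold of 0.05, all higher, while 26.6% of all genes tested passed it in either direction, 13.7% higher and 13% lower. The same 3 genes had groups without overlap, as did 17.7% of all genes. In FVB muscle the log2 fold change of *Hdac4* with AICAR was 0.41 (SE 0.19, adjusted p = 0.18 by edgeR's quasi-likelihood test), and the groups overlapped. The difference between both responses was 0.32 on the log2 scale (95% interval -0.20 to 0.85, adjusted p = 0.57 by the interaction term of the same edgeR fit), so a response confined to HSALR muscle was not shown. Without 1 mouse in turn, the response in FVB muscle ranged from 0.22 to 0.56 and the difference from 0.17 to 0.52. The difference was 0.017 in the lowest of 9 other alternatives. The AICAR comparisons of both genotypes share no mice, but each shares its mice with the genotype comparisons.

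Between genotypes, *Hdac4* was higher in HSALR than in FVB muscle after AICAR by a log2 fold change of 0.70 (SE 0.18, adjusted p = 0.011 by edgeR's quasi-likelihood test), and the groups did not overlap. Without the AICAR-treated FVB mouse S447 it was 0.55 with an adjusted p of 0.069 in that edgeR test. After vehicle the log2 fold change was 0.37 (SE 0.18, adjusted p = 0.13 by edgeR's quasi-likelihood test) with overlapping groups. Without the vehicle-treated HSALR mouse S458 it was 0.49 with an adjusted p of 0.026 in the same test. Scaled to *Tbp*, the transcript used as reference in the quantitative PCR of the study, *Hdac4* passed the threshold between genotypes after vehicle (0.65, adjusted p = 0.0064 in edgeR) and with AICAR in FVB muscle (0.60, adjusted p = 0.036 in edgeR). The study itself, by quantitative PCR normalized to *Tbp*, reported no change of the *Hdac4* transcript in HSALR muscle, while HDAC4 protein was higher.

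*Mef2d* (chr3:88141941-88172091, plus strand), which encodes a MEF2 factor of mature muscle that class IIa deacetylases bind, measured 218, 224 and 207 normalized CPM in vehicle-treated FVB mice and 239, 252 and 299 in AICAR-treated FVB mice. In HSALR muscle it measured 211, 257, 237, 238 and 263 after vehicle and 322, 308, 295, 302 and 340 after AICAR. In both genotypes every AICAR-treated mouse was above every vehicle-treated mouse.

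*Mef2d* rose with AICAR in HSALR muscle by 0.38 on the log2 scale (SE 0.070, 95% interval 0.23 to 0.53, adjusted p = 0.0012 by edgeR's quasi-likelihood test). Scaled to *Tbp* it was 0.26 and the call was lost (adjusted p = 0.093 in edgeR). In FVB muscle the log2 fold change was 0.28 (SE 0.091, 95% interval 0.09 to 0.48), with an adjusted p of 0.051 by edgeR's quasi-likelihood test. There 0 of the 9 genes passed the threshold by this test, against 13.2% of all genes tested (8.4% higher and 4.77% lower), while 1 of 9, *Mef2d*, had an unadjusted p under 0.05 and DESeq2 also called *Mef2d* (adjusted p = 0.021). Groups without overlap were seen for 2 of 9 genes in that comparison, *Mef2d* and *Hdac5*, against 33.1% of all genes. The *Mef2d* responses of both genotypes differed by 0.093 on the log2 scale (95% interval -0.15 to 0.34, adjusted p = 0.75 in edgeR).

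*Mef2d* was also higher in HSALR than in FVB muscle after AICAR (log2 fold change 0.25, SE 0.082, adjusted p = 0.039 by edgeR's quasi-likelihood test), although the groups overlapped. This call held in 3 of the 8 fits that each left out 1 of these mice, and was lost without S447 (adjusted p = 0.19), S448 (0.14), S463 (0.085), S454 (0.075) or S455 (0.058) in edgeR. It held in 4 of 10 other alternatives, and was lost with *Tbp* scaling (adjusted p = 0.29), without the 6 libraries with *Krt14* (0.13), with only the groups compared (0.057), with the epidermal covariate (0.055), with relative log expression scaling (0.054) and without a filter on low counts (0.051), all in edgeR. After vehicle the log2 fold change was 0.16 (SE 0.082, adjusted p = 0.17 in edgeR).

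*Mef2a* (chr7:67231163-67376456, minus strand), another MEF2 gene, measured 212, 176 and 212 normalized CPM in vehicle-treated and 185, 207 and 253 in AICAR-treated FVB mice. In HSALR mice it measured 208, 212, 214, 144 and 181 after vehicle and 279, 269, 218, 225 and 253 after AICAR, where the lowest treated mouse, S460, was just above the highest vehicle-treated mouse, S453. It rose with AICAR in HSALR muscle by 0.38 on the log2 scale (SE 0.12, adjusted p = 0.026 by edgeR's quasi-likelihood test). Without S454, S455 or S459 in turn the adjusted p was 0.069, 0.059 and 0.055 in edgeR, with log2 fold changes of 0.33, 0.35 and 0.36. The call was also lost with library-size scaling (0.30, adjusted p = 0.059 in edgeR) and with *Tbp* scaling (0.26, adjusted p = 0.12 in edgeR). In FVB muscle the log2 fold change was 0.10 (SE 0.15, adjusted p = 0.70 in edgeR), and the difference of the responses was 0.27 (95% interval -0.13 to 0.67, adjusted p = 0.52 in edgeR). Between genotypes *Mef2a* had log2 fold changes of -0.061 after vehicle (adjusted p = 0.78 in edgeR) and 0.21 after AICAR (adjusted p = 0.28), with overlapping groups.

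*Mef2c* (chr13:83504017-83667079, plus strand) ranged from 918 to 1063 normalized CPM in vehicle-treated FVB mice, from 1034 to 1240 in AICAR-treated FVB mice, from 828 to 1171 in vehicle-treated HSALR mice and from 966 to 1277 in AICAR-treated HSALR mice. All 4 groups overlapped. Its log2 fold change with AICAR in HSALR muscle was 0.013 (95% interval -0.19 to 0.22, adjusted p = 0.94 in edgeR), in contrast to *Mef2a* and *Mef2d*, although no test compared the genes with each other. In FVB muscle it was 0.19 (95% interval -0.078 to 0.45, adjusted p = 0.35 in edgeR), and between genotypes it was 0.074 after vehicle (adjusted p = 0.67) and -0.099 after AICAR (adjusted p = 0.55). *Mef2b*, the remaining MEF2 gene, was a minor transcript with 0.16% to 0.31% of the length-scaled MEF2 sum as the mean of each group. It had 29 to 98 reads per library and was higher in HSALR than in FVB muscle after AICAR (log2 fold change 0.63, SE 0.20, adjusted p = 0.036 in edgeR), a call lost with library-size scaling (adjusted p = 0.058) and *Tbp* scaling (adjusted p = 0.14).

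In the comparison of AICAR with vehicle in HSALR muscle, markers of other tissue also moved. All 8 epidermal markers fell, from a sum of 0.61 to 187 normalized CPM in vehicle-treated mice to 0.24 to 0.37 in AICAR-treated mice, where 2 of the 8 had no count. Of the fibroblast markers 3 of 5 fell, and their sum was 1236 to 1657 normalized CPM after vehicle and 959 to 1285 after AICAR. Of the endothelial markers 2 of 7 rose, with sums of 209 to 258 and 247 to 264. Of the smooth muscle markers only *Des* passed the threshold (log2 fold change 0.23), a gene that skeletal muscle fibres express as well, and the other 4 did not. Of the leukocyte markers 1 of 5 tested fell (sums of 59.9 to 74.0 and 48.9 to 77.5), as did 1 of 4 satellite cell markers (18.4 to 25.02 and 15.1 to 19.6), and none of the adipocyte or Schwann cell markers passed the threshold in edgeR. None of these other markers was at 0 in every AICAR-treated HSALR mouse, and their part in the results was not tested. With the summed epidermal markers as a covariate, *Hdac4* (log2 fold change 0.73, adjusted p = 0.030 in edgeR) and *Mef2d* (0.38, adjusted p = 0.019) stayed past the threshold, whereas *Mef2a* did not (0.37, adjusted p = 0.14). Without the 6 libraries above 1 normalized CPM of *Krt14*, which left 1 vehicle-treated HSALR mouse and therefore assumed that it varies like the other groups, *Mef2d* stayed past the threshold (0.57, adjusted p = 0.034 in edgeR) and *Hdac4* (0.67, adjusted p = 0.11) and *Mef2a* (0.26, adjusted p = 0.47) did not. That remaining vehicle-treated mouse, S451, had 73.4 normalized CPM of *Hdac4*, below the 106 of the lowest AICAR-treated mouse. Between genotypes after AICAR, where *Hdac4*, *Mef2d* and *Hdac7* were called, 5 of the 8 epidermal markers were lower in HSALR muscle, with sums of 0.24 to 104 normalized CPM in FVB and 0.24 to 0.37 in HSALR mice. Of 5 smooth muscle markers *Myh11* was lower (-0.49), and 1 of 5 Schwann cell markers was lower, with sums of 106 to 258 and 91.9 to 153. After vehicle no epidermal marker was called in edgeR, and *Myh11* (-0.83) and *Cnn1* (-0.84) were lower. The part of these markers in the genotype differences was not tested, other than by the fits with the epidermal covariate and without the 6 libraries.

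**Figure D2:**
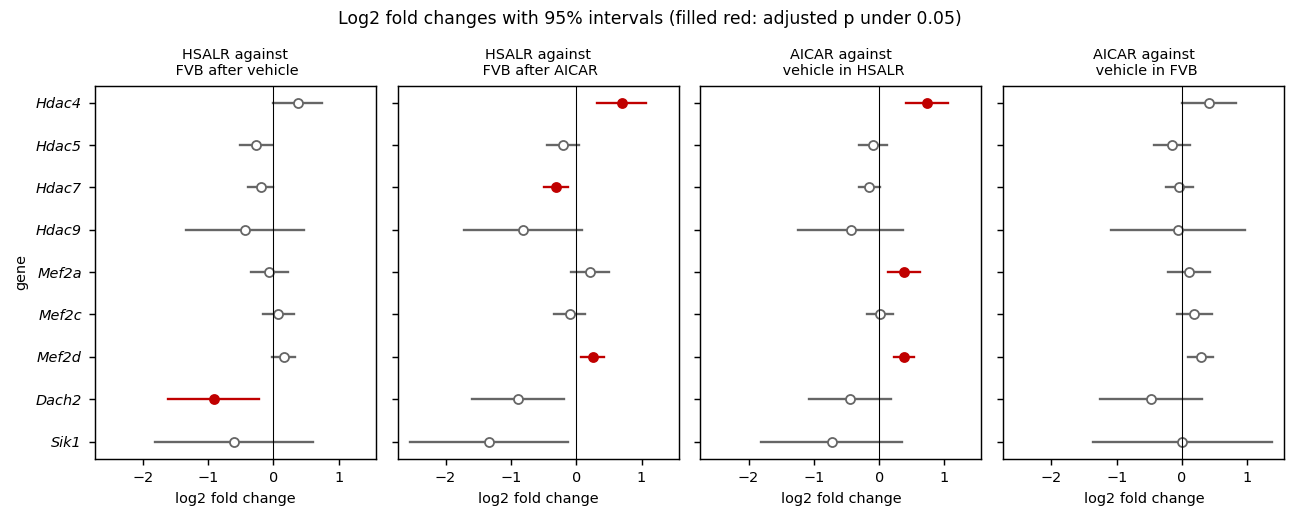
Log2 fold changes of the 9 genes (x axis) with 95% intervals, for HSALR against FVB after vehicle and after AICAR and for AICAR against vehicle in HSALR and in FVB muscle. Filled red points have an adjusted p under 0.05 in edgeR, as do *Hdac4*, *Mef2a* and *Mef2d* for AICAR in HSALR muscle, and the widest intervals belong to *Sik1*, *Hdac9* and *Dach2*.

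*Dach2* (chrX:113297496-113836386, plus strand), a transcriptional corepressor that HDAC4 controls, was the least abundant of the 9 genes, with 59 to 386 reads per library. It measured 3.56, 2.65 and 5.24 normalized CPM in vehicle-treated FVB mice and 3.10, 2.91 and 2.23 in AICAR-treated FVB mice. In HSALR mice it measured 1.81, 3.63, 1.36, 1.21 and 2.13 after vehicle and 0.81, 1.67, 1.37, 1.91 and 1.64 after AICAR. After AICAR all 5 HSALR mice were below all 3 FVB mice, while after vehicle HSALR mouse S452 lay within the FVB range.

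*Dach2* was lower in HSALR than in FVB muscle after vehicle, with a log2 fold change of -0.91 (SE 0.33, 95% interval -1.61 to -0.22, adjusted p = 0.0495 by edgeR's quasi-likelihood test). It was the only 1 of the 9 genes past the threshold in this comparison, in which 26.9% of all genes tested passed, 15.4% higher and 11.5% lower. The call was lost in 6 of the 8 fits that left out a mouse, without S445, S450, S451, S453, S458 or S459, with log2 fold changes of -0.61 to -1.24 and adjusted p of 0.0060 to 0.24 over the 8 edgeR fits. It was also lost in edgeR with library-size scaling (adjusted p = 0.056), without a filter on low counts (0.056), with only the groups compared (0.097), with *Tbp* scaling (0.17) and without the 6 libraries with *Krt14* (0.36). After AICAR the log2 fold change was nearly the same at -0.89 (SE 0.33), with an adjusted p of 0.066 in edgeR, 0.035 in DESeq2 and 0.030 in an edgeR fit of these groups alone.

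AICAR gave *Dach2* a log2 fold change of -0.45 in HSALR (95% interval -1.08 to 0.17, adjusted p = 0.28 in edgeR) and of -0.47 in FVB muscle (95% interval -1.26 to 0.31, adjusted p = 0.43 in edgeR). These intervals are wide, and the coefficient of variation was 47.7% among vehicle-treated HSALR mice. Over the fits without 1 mouse, the log2 fold change ranged from -0.59 to -0.14 in HSALR and from -0.68 to -0.18 in FVB muscle. Of all genes compared, those most like *Dach2* over the 16 libraries were *Idh2*, the mitochondrial isocitrate dehydrogenase, *Htra4*, a secreted serine protease, and *Fabp3*, the fatty acid binding protein of heart and muscle. Their centred log2 levels differed from those of *Dach2* by 0.28, 0.29 and 0.30 on average, against a mean deviation of *Dach2* itself of 0.54.

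*Hdac5* (chr11:102195747-102230172, minus strand), the most abundant class IIa deacetylase transcript per length, measured 86.1, 85.2 and 86.7 normalized CPM in vehicle-treated FVB mice and 74.5, 73.5 and 84.1 in AICAR-treated FVB mice. In HSALR mice it measured 66.1, 58.0, 65.2, 85.1 and 84.2 after vehicle and 61.9, 74.9, 73.8, 67.7 and 58.1 after AICAR. Among the vehicle-treated HSALR mice, S458 and S459 lay just below the vehicle-treated FVB mice and above the AICAR-treated FVB mice. The log2 fold change between genotypes after vehicle was -0.26 (95% interval -0.51 to -0.014, adjusted p = 0.11 in edgeR) with groups that did not overlap. Without S458 it was -0.33 with an adjusted p of 0.043, and scaled to the transcript *Tbp* it turned to 0.016. With AICAR the log2 fold changes were -0.093 in HSALR (95% interval -0.31 to 0.12) and -0.15 in FVB muscle (95% interval -0.43 to 0.13). Between genotypes after AICAR the log2 fold change was -0.20 (95% interval -0.45 to 0.046, adjusted p = 0.23 in edgeR) with overlapping groups.

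*Hdac7* (chr15:97792661-97844502, minus strand) is known for its role in endothelial cells. It ranged from 17.9 to 18.8 normalized CPM in vehicle-treated FVB, from 17.02 to 19.2 in AICAR-treated FVB, from 14.0 to 17.5 in vehicle-treated HSALR and from 12.9 to 17.1 in AICAR-treated HSALR mice. It was lower in HSALR than in FVB muscle after AICAR (log2 fold change -0.31, SE 0.087, adjusted p = 0.021 by edgeR's quasi-likelihood test), though AICAR-treated HSALR mouse S460, at 17.1, lay within the FVB range. Without the FVB mouse S447 it was -0.26 with an adjusted p of 0.10 in edgeR, and the call was also lost with *Tbp* scaling (-0.34, adjusted p = 0.15 in edgeR) and without the 6 libraries with *Krt14* (-0.32, adjusted p = 0.070 in edgeR). In this comparison 3 of the 9 genes passed the threshold, *Hdac4* and *Mef2d* higher and *Hdac7* lower, against 21.8% of all genes tested (12.2% higher and 9.64% lower), and 2 of 9 had groups without overlap, *Hdac4* and *Dach2*, against 26.5%.

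After vehicle the log2 fold change of *Hdac7* between genotypes was -0.20 (95% interval -0.38 to -0.010, adjusted p = 0.11 in edgeR). The groups did not overlap, which in this comparison held for 2 of the 9 genes, *Hdac5* and *Hdac7*, and for 29.7% of all genes tested, and scaled to *Tbp* it turned to 0.075. Endothelial markers moved alongside. They summed to 306 to 350 normalized CPM in vehicle-treated FVB mice and to 209 to 258 in vehicle-treated HSALR mice, with 6 of 7 lower, and after AICAR to 318 to 327 and 247 to 264, with 3 of 7 lower. None of the 7 was at 0, and their part in the *Hdac7* difference was not tested. With AICAR in HSALR muscle *Hdac7* had a log2 fold change of -0.15 (SE 0.076, adjusted p = 0.16 in edgeR), and without mouse S460 it was -0.22 (adjusted p = 0.027). In FVB muscle it was -0.042 (adjusted p = 0.83 in edgeR).

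*Hdac9* (chr12:34047580-34917095, minus strand) also encodes MITR, a splice form without the deacetylase domain, and the counts give only the gene total. It measured 18.3, 15.5 and 30.0 normalized CPM in vehicle-treated FVB mice and 28.8, 16.8 and 15.5 in AICAR-treated FVB mice. In HSALR mice it measured 18.5, 8.22, 9.95, 23.9 and 17.98 after vehicle and 7.02, 13.3, 23.7, 7.15 and 6.93 after AICAR. Mice of the same group spread widely, most of all those treated with AICAR in HSALR muscle, and all groups overlapped.

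No comparison of *Hdac9* passed the threshold in edgeR. The log2 fold change between genotypes was -0.44 after vehicle (SE 0.43, adjusted p = 0.49) and -0.81 after AICAR (SE 0.42, adjusted p = 0.19), and with AICAR it was -0.44 in HSALR (adjusted p = 0.43) and -0.061 in FVB muscle (adjusted p = 0.95). Without HSALR mouse S460, the value between genotypes after AICAR was -1.24 with an adjusted p of 0.024 in edgeR. Over all fits without 1 mouse it ranged from -1.24 to -0.48, with adjusted p up to 0.55 in edgeR. In the same way the value after vehicle ranged from -0.64 to -0.11, and that for AICAR in HSALR muscle from -0.87 to -0.23. The gene most like *Hdac9* was *Itgb6*, an integrin beta subunit, with an average difference of 0.23 between centred log2 levels against a mean deviation of 0.59 of *Hdac9* itself, followed by *Tsku*, a secreted leucine-rich repeat protein, at 0.33 and *Arl4d*, a small GTPase, at 0.34.

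*Sik1* (chr17:31844248-31855804, minus strand) encodes a kinase that phosphorylates class IIa deacetylases and CRTC coactivators and is itself induced by cyclic AMP signalling. It measured 29.5, 60.8 and 53.7 normalized CPM in vehicle-treated FVB mice and 90.7, 25.7 and 28.0 in AICAR-treated FVB mice. In HSALR mice it measured 36.1, 28.5, 28.4, 37.1 and 27.7 after vehicle and 9.68, 9.41, 56.6, 9.95 and 9.88 after AICAR. In 4 of the 5 AICAR-treated HSALR mice it was therefore below every other mouse, while the fifth, S460, was above all vehicle-treated HSALR mice.

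With all mice, *Sik1* had a log2 fold change with AICAR of -0.73 in HSALR muscle (SE 0.51, 95% interval -1.80 to 0.35, adjusted p = 0.32 by edgeR's quasi-likelihood test) and of -1.33 between genotypes after AICAR (SE 0.57, adjusted p = 0.10 in edgeR). With limma and voom the value between genotypes after AICAR was -1.55 and passed the threshold (adjusted p = 0.041). Without S460 the values were -1.70 (adjusted p = 0.0017 in edgeR) and -2.31 (adjusted p = 4.6e-04 in edgeR). Over all fits without 1 mouse, the value for AICAR in HSALR muscle ranged from -1.70 to -0.55, with adjusted p up to 0.51 in edgeR. The value between genotypes after AICAR ranged from -2.31 to -0.49, with adjusted p up to 0.62 in edgeR. S460 was singled out after its value had been seen. In FVB muscle the log2 fold change with AICAR was 0.0028 (95% interval -1.37 to 1.37, adjusted p = 1.00 in edgeR), and without FVB mouse S447, which had the highest level of all, it was -0.84 (adjusted p = 0.46). Between genotypes after vehicle it was -0.60 (SE 0.57, adjusted p = 0.48 in edgeR).

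The pattern of *Sik1* over the mice was shared most closely by *Klf4*, a zinc finger transcription factor, *Id1*, an inhibitor of basic helix-loop-helix factors, and *Gprc5a*, a retinoic acid-inducible receptor. Their centred log2 levels differed from those of *Sik1* by 0.24, 0.30 and 0.39 on average over the 16 libraries, against a mean deviation of *Sik1* itself of 0.75. In AICAR-treated HSALR mouse S460 *Klf4* was at 45.5 and *Id1* at 18.6 normalized CPM, whereas in the other 4 mice of the group *Klf4* was at 10.6 to 13.0 and *Id1* at 4.10 to 8.01. *Hdac9* was also highest in S460 within this group, at 23.7 against 6.93 to 13.3.

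**Figure D3:**
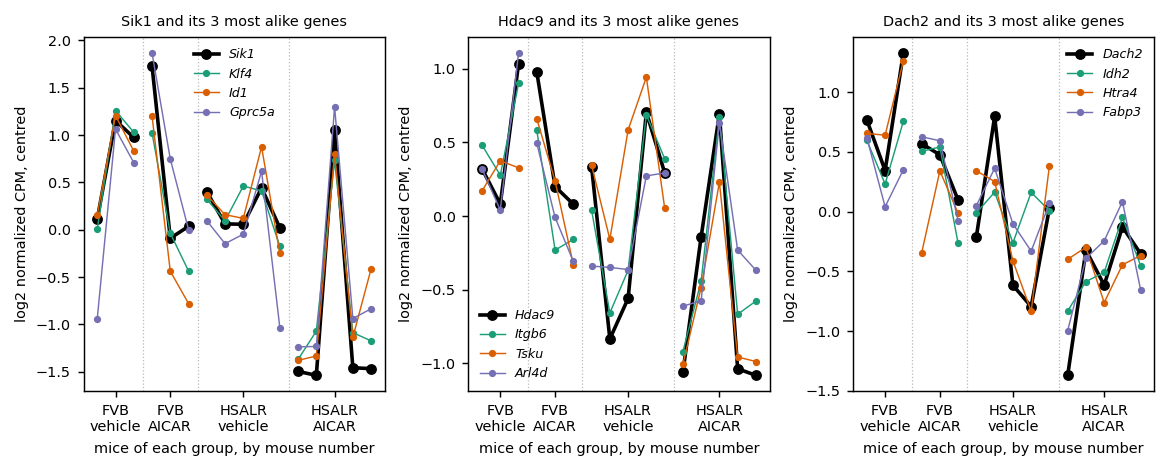
Log2 normalized CPM of *Sik1*, *Hdac9* and *Dach2* (thick black) and of the 3 genes most like each (colours), each centred on its own mean over the 16 mice (y axis), with mice arranged by group along the x axis. Lines join mice of a group only to guide the eye. For *Sik1* the third AICAR-treated HSALR mouse, S460, is high in all 4 genes.

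Taken as a share of the length-scaled sum of the 4 class IIa transcripts, which does not depend on library scaling, *Hdac4* made up 21.1% ± 1.25 (SD, n = 3) in vehicle-treated FVB, 27.7% ± 4.50 (n = 3) in AICAR-treated FVB, 29.7% ± 8.24 (n = 5) in vehicle-treated HSALR and 43.1% ± 4.72 (n = 5) in AICAR-treated HSALR mice. *Hdac5* made up 61.1%, 54.9%, 54.5% and 45.1% in the same order, *Hdac7* 11.7%, 11.4%, 11.0% and 8.69%, and *Hdac9* 6.12%, 5.98%, 4.83% and 3.12%. In both genotypes the mean *Hdac4* share was larger, and the mean shares of the other 3 genes were smaller, after AICAR than after vehicle, values that are bound together by their common sum.

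In HSALR muscle the *Hdac4* share was 13.4 percentage points larger after AICAR than after vehicle (exact permutation test, two-sided, p = 0.016, n = 5 and 5). The *Hdac5* share was lower by -9.38 points and the *Hdac7* share by -2.28 points, in both cases without overlap (exact permutation p = 0.0079, the smallest that 5 against 5 mice allow). Between genotypes after AICAR the *Hdac4* share differed by 15.3 points (exact permutation p = 0.018, the smallest that 5 against 3 mice allow). After Benjamini-Hochberg adjustment over the 32 share comparisons of class IIa and MEF2 genes none passed the threshold, and the smallest adjusted value was 0.095 in these exact permutation tests. The comparison within FVB mice could not reach a p under 0.1. Among the MEF2 transcripts, *Mef2c* made up 67.6% in vehicle-treated and 61.9% in AICAR-treated HSALR muscle (exact permutation p = 0.032, adjusted p = 0.14).

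**Figure D4:**
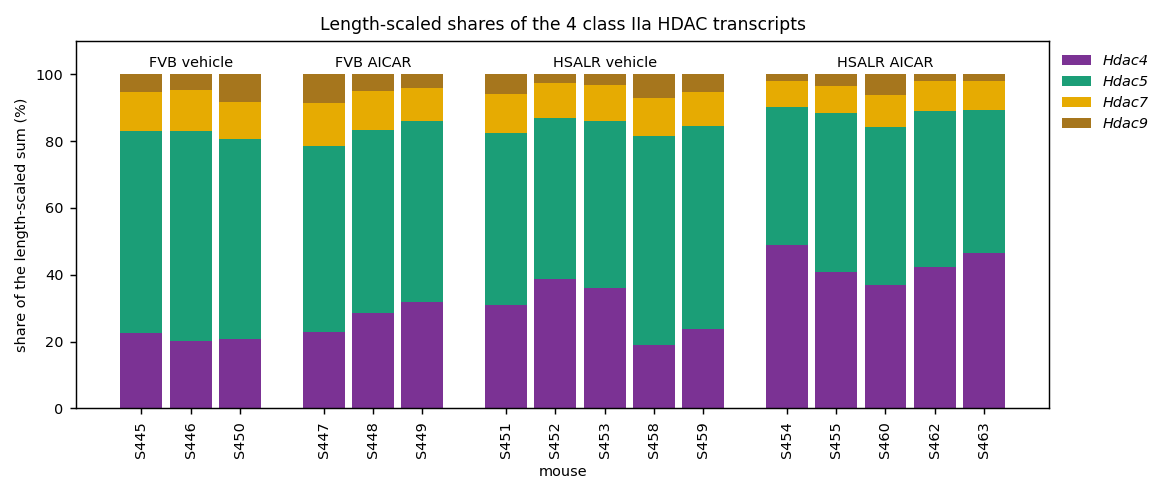
Share of each class IIa deacetylase gene in their length-scaled sum (y axis, in percent) for each of the 16 mice (x axis), stacked to 100%. The *Hdac4* share is 37.0% to 49.0% in AICAR-treated HSALR mice and 19.0% to 38.7% in vehicle-treated HSALR mice.

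Genes of the same pathway were examined as lists. With other scalings of the libraries, no gene of these lists that had passed the threshold turned direction, other than *Prkd3* and *Ppp3cb* as given below. Scaling to *Tbp*, however, kept the calls of 23 of 30 genes of the lists between genotypes after vehicle, 16 of 28 after AICAR, 18 of 30 for AICAR in HSALR muscle and 9 of 17 in FVB muscle, counting class IIa and MEF2 genes with them. Of the genes named below it ended the calls of *Hdac3*, *Prkaa2*, *Prkd3*, *Ep300*, *Ppp3cb*, *Crtc2* and *Dach2* after vehicle, and of *Hdac3*, *Hdac6*, *Prkaa2*, *Prkd3*, *Ywhag*, *Gps2*, *Carm1*, *Ppp3r1* and *Crtc2* after AICAR. For AICAR in HSALR muscle it ended those of *Hdac3*, *Hdac6*, *Prkaa2*, *Stk11*, *Ywhae*, *Gps2*, *Carm1*, *Slc2a4*, *Des* and *Crtc2*, and in FVB muscle those of *Hdac11*, *Hspb7*, *Srpk3*, *Crtc3*, *Six4*, *Myog* and *Chrne*. Library-size scaling kept 28, 27, 25 and 16 of these calls in the same order. It ended those of *Prkd3* and *Dach2* after vehicle, of *Hdac3*, *Hdac6*, *Prkaa2* and *Carm1* for AICAR in HSALR muscle and of *Ywhah* in FVB muscle. Relative log expression scaling kept 28, 26, 29 and 17. It ended the calls of *Hdac2* and *Carm1* after vehicle, of *Hdac6* and *Mef2d* after AICAR and of *Prkaa2* for AICAR in HSALR muscle.

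Of the 7 deacetylase genes of classes I, IIb and IV, 4 passed the threshold in each comparison between genotypes, 2 with AICAR in HSALR and 1 with AICAR in FVB muscle, by edgeR. Over all genes tested, 26.9% passed between genotypes after vehicle, 21.8% after AICAR, 26.6% with AICAR in HSALR and 13.2% with AICAR in FVB muscle, shares against which the counts of the other lists can be read. The genes *Hdac11* (log2 fold change -0.66), *Hdac10* (-0.61) and *Hdac3* (-0.30) were lower and *Hdac2* (0.17) was higher in HSALR muscle after vehicle, and after AICAR *Hdac10* (-0.63), *Hdac11* (-0.46) and *Hdac3* (-0.18) were lower and *Hdac6* (0.27) higher. *Hdac3* encodes the catalytic partner of the class IIa enzymes. With AICAR in HSALR muscle *Hdac6* (0.24) and *Hdac3* (0.18) rose, and in FVB muscle *Hdac11* fell (-0.35). The median log2 fold change of the list was -0.13 between genotypes after vehicle, beside 0.0097 over all genes.

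Of 11 genes for kinases of class IIa deacetylases outside the calcium/calmodulin-dependent kinases, *Prkaa2* (log2 fold change -0.44), encoding a catalytic subunit of AMP-activated protein kinase, and *Prkd3* (-0.22), encoding a protein kinase D, were lower in HSALR than in FVB muscle after vehicle, and both were also lower after AICAR (-0.32 and -0.22). *Prkd3* turned to 0.047 after vehicle when scaled to *Tbp*. With AICAR in HSALR muscle *Sik3* (0.45), a relative of *Sik1*, and *Prkaa2* (0.23) rose, while *Prkaa1* (-0.28) and *Stk11* (-0.18), encoding the kinase upstream of both families, fell. In FVB muscle 0 of the 11 passed the threshold in edgeR, against 13.2% of all genes, and 2 of them, *Sik3* (0.30) and *Stk11* (-0.18), had an unadjusted p under 0.05 there. The list had a median of -0.014 with AICAR in HSALR muscle, beside -0.020 over all genes.

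Among the 7 genes for 14-3-3 proteins, which bind phosphorylated class IIa deacetylases, *Ywhae* (log2 fold change 0.38), *Ywhag* (0.33) and *Ywhab* (0.28) were higher in HSALR than in FVB muscle after vehicle, and *Ywhae* (0.54) and *Ywhag* (0.24) after AICAR, by edgeR. None was lower in either comparison. The list had a median of 0.28 after vehicle and of -0.042 after AICAR, beside 0.0097 and 0.0037 over all genes. With AICAR, *Ywhae* (0.26) rose in HSALR and *Ywhah* (0.33) in FVB muscle. *Sfn* fell in HSALR muscle (-3.31), together with the epidermal markers given above, and is an epithelial 14-3-3 gene.

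Among genes of the corepressor complex that holds HDAC3, *Hdac3* was lower in HSALR muscle after vehicle, and after AICAR *Gps2* (log2 fold change -0.22) and *Hdac3* were lower. *Gps2*, encoding a small subunit of the complex, rose with AICAR in HSALR (0.29) and in FVB muscle (0.38). Of 11 MEF2 regulators and cofactors, *Rcan1* (0.77), an inhibitor and target of calcineurin, and *Carm1* (0.24), a methyltransferase that acts as MEF2 coactivator, were higher in HSALR muscle after vehicle, and *Ep300* (-0.40) and the calcineurin subunit *Ppp3cb* (-0.25) were lower, although *Ppp3cb* turned to 0.029 when scaled to *Tbp*. After AICAR *Carm1* (0.30) was higher and *Ppp3r1* (-0.28), another calcineurin subunit, lower. With AICAR in HSALR muscle *Carm1* rose (0.24) and *Rcan1* fell (-0.41), and in FVB muscle 0 of the 11 passed by edgeR, against 13.2% of all genes, with 1, *Ep300* (-0.23), at an unadjusted p under 0.05.

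A list of 12 genes known as MEF2 targets in muscle or other cells moved in both directions. Between genotypes after vehicle 6 of 12 were higher and none lower in HSALR muscle, by edgeR. They were led by *Xirp1* (log2 fold change 2.04), encoding an actin-binding protein, *Hspb7* (1.10), encoding a small heat shock protein, *Mb* (0.79), encoding myoglobin, and *Jun* (0.67). The list's median was 0.17, beside 0.0097 over all genes, and 15.4% of all genes were higher. After AICAR *Mb* (1.18), *Jun* (1.02), *Hspb7* (0.89) and *Srpk3* (0.76), a muscle-specific kinase, were higher and *Ppargc1a* (-0.87), encoding the coactivator PGC-1alpha, was lower.

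With AICAR in HSALR muscle *Ppargc1a* (log2 fold change 0.74), *Slc2a4* (0.30), encoding the glucose transporter GLUT4, and *Des* (0.23), encoding desmin, rose, while *Xirp1* (-1.46) and *Hspb7* (-0.99) fell. In FVB muscle *Ppargc1a* (1.66), *Des* (0.39) and *Smyd1* (0.25), a muscle methyltransferase, rose and *Hspb7* (-0.77) and *Srpk3* (-0.40) fell. The response of *Xirp1* differed between genotypes (-1.84, adjusted p = 0.0496 in edgeR), as did 0.691% of all genes tested (0.207% with a positive and 0.484% with a negative difference), whereas 0 of the 9 genes of the set passed that test in edgeR. None of the 9 had an unadjusted p under 0.05 in it, and the counts were also 0 with DESeq2 and with limma. For the genes whose difference is not given above, the response in HSALR minus that in FVB muscle was, on the log2 scale, 0.060 for *Hdac5* (95% interval -0.29 to 0.41), -0.11 for *Hdac7* (-0.37 to 0.15), -0.37 for *Hdac9* (-1.67 to 0.92), 0.020 for *Dach2* (-0.99 to 1.04), -0.17 for *Mef2c* (-0.51 to 0.16) and -0.73 for *Sik1* (-2.47 to 1.01).

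Salt-inducible kinases phosphorylate CRTC coactivators, which 14-3-3 proteins then hold outside the nucleus as they do class IIa deacetylases, and CRTC proteins act on nuclear factors of the CREB family. In HSALR muscle after vehicle *Crem* (log2 fold change 0.42), encoding cyclic AMP response element modulators, was higher and *Crtc2* (-0.44) lower than in FVB muscle, and after AICAR both *Crem* (-0.65) and *Crtc2* (-0.26) were lower. *Crem* rose with AICAR in FVB (0.68) and fell in HSALR muscle (-0.39), and this difference of -1.07 passed the interaction test (adjusted p = 0.014 in edgeR). Over all genes, the number past this test ranged from 15 to 371 between fits without 1 mouse. For *Crem* and *Xirp1* the results of those fits are not given here. *Crtc2* (0.35) rose and *Crtc3* (-0.27) fell with AICAR in HSALR muscle, and *Crtc3* (-0.42) also fell in FVB muscle.

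*Dach2* belongs to a network of DACH and EYA cofactors and homeobox transcription factors, among them *Six4* and *Six5*, that controls muscle gene programs. Among the genes of this network, *Six2* (log2 fold change -1.58) and *Dach1* (-1.22) were lower with *Dach2* in HSALR muscle after vehicle, by edgeR. After AICAR *Six2* (-1.30) was lower and *Eya4* (0.69) higher. With AICAR in HSALR muscle *Eya4* (0.96) and *Eya1* (0.88) rose and *Six5* (-0.78) fell, and in FVB muscle *Six4* (-0.56) fell.

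Of 6 genes known as HDAC4 targets, *Actc1* (log2 fold change -3.15), encoding cardiac actin, and *Dach2* were lower in HSALR than in FVB muscle after vehicle, and *Actc1* (-2.58) and *Myh4* (-0.67), encoding the fast myosin heavy chain IIB, after AICAR, by edgeR. The genes *Ramp1* (-0.014), *Dhrs7c* (-0.0050), *Cdh1* (0.46) and *Myh4* (-0.34) did not pass after vehicle. The study measured these genes in muscle of the same mouse model, so the list is not independent evidence of a direction. With AICAR *Actc1* fell in HSALR (-0.85) and in FVB muscle (-1.42). *Cdh1*, encoding E-cadherin, also fell in HSALR muscle (-2.05), where all 8 epidermal markers fell.

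Of 5 genes, 4 synaptic genes and their activator *Myog*, *Musk* (log2 fold change 1.43), *Chrna1* (1.24), *Myog* (0.78) and *Chrne* (0.63) were higher in HSALR than in FVB muscle after vehicle, and *Chrna1* (1.42) and *Chrne* (0.92) after AICAR, by edgeR. With AICAR *Myog* fell in HSALR (-1.37) and in FVB muscle (-1.02), *Chrng* fell in HSALR muscle (-1.42), and in FVB muscle *Musk* rose (1.02) and *Chrne* fell (-0.65). Besides the markers given above, those of satellite cells and leukocytes moved with the genotype. Of 4 satellite cell markers 2 were higher in HSALR muscle after vehicle, with sums of 12.1 to 18.7 normalized CPM in FVB and 18.4 to 25.02 in HSALR mice, and 2 after AICAR, with sums of 9.99 to 14.1 and 15.1 to 19.6. Of 5 leukocyte markers tested 2 were higher after vehicle, with sums of 44.1 to 60.7 and 59.9 to 74.0, and none passed after AICAR in edgeR. None of these markers was at 0 throughout a group, and their part in the results was not tested.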

How the data were processed

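RNA was extracted from powdered *gastrocnemius* muscle of 16 mice. The authors aligned reads with STAR 2.5.2a, per the labels, counted them per gene with QuasR on RefSeq annotation, and deposited whole-number read counts with the gene length; whether counting used strand is not given in the sources used here. *Hdac7*, *Hdac9* and others overlap genes, so shared reads cannot be assigned. Of 24454 identifiers, 24374 matched a symbol. Groups came from the sample titles.

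The tests used edgeR 4.0.16 in R 4.3.3, with filterByExpr, trimmed mean of M values (factors 0.906 to 1.06), 1 mean per group over all 16 libraries, quasi-likelihood tests and Benjamini-Hochberg adjustment over 15487 genes, threshold 0.05. Intervals are 95%. The p-values set differences between groups against the spread between these mice. Shares used the two-sided exact permutation test. Alternatives were DESeq2 1.42.0, limma 3.58.1 with voom, other scalings (including *Tbp*, the reference transcript of the study's quantitative PCR) and filters, fewer groups, an epidermal covariate, and leaving out mice. Scripts were tested on simulated data. Replicates differed beyond sampling noise (chi-square per degree of freedom 24.0 to 134).

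All 9 genes are named in each comparison. From each list, up to 4 genes past the threshold with the largest change are named, except that results for some genes are not reported here; for the 3 most variable genes, *Sik1*, *Hdac9* and *Dach2*, the 3 genes with the smallest mean absolute difference of centred log2 levels (prior count 2, mean count of at least 50, 13000 genes) are named. Members and lists were chosen with earlier results of these data known. Positions are from RefSeq, build GRCm38.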

Additional observations from a re-analysis of the deposited data

Results flagged for a closer look

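In AICAR-treated HSALR mice, *Sik1* was at 56.6 normalized CPM in mouse S460 and at 9.41 to 9.95 in the other 4, a gap to the nearest mouse larger than Dixon's test allows at 95%. In vehicle-treated HSALR mice, *Mef2b* made up 0.462% of the length-scaled MEF2 sum in mouse S458 and 0.227% to 0.290% in the other 4, which passed the same limit. Of 34 groups of 5 mice examined in this way 2 passed the limit, where chance gives 1.7.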

How the results depend on the processing

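The AICAR responses of *Hdac4* and *Mef2d* in HSALR muscle kept their direction in all alternatives run, and their calls in each of the 10 fits without 1 mouse. The number of the 9 genes called ranged over these fits from 0 to 2 between genotypes after vehicle (1 with all mice), from 0 to 5 after AICAR (3), from 2 to 5 for AICAR in HSALR muscle (3) and from 0 to 1 in FVB muscle (0). The lowest count for AICAR in HSALR muscle lacks *Mef2a*, and both counts of 5 arose without S460. The count after AICAR was 0 without S447. Between genotypes after vehicle the count was 0 with library-size scaling, without a filter, with only the groups compared, and without the 6 libraries with *Krt14*, and 2 with *Tbp* scaling, *Hdac4* and *Mef2d* (0.43, adjusted p = 0.011 in edgeR), both higher, in place of *Dach2* (-0.60, adjusted p = 0.17). After AICAR it was 1 with *Tbp* scaling and 1 without those 6 libraries. For AICAR in HSALR muscle it was 1 with *Tbp* scaling, *Hdac4* (0.62, adjusted p = 0.0063 in edgeR), and 1 without those libraries, *Mef2d*. In FVB muscle it was 1 with DESeq2, library-size scaling or at least 10 counts in every library, and 2 with *Tbp* scaling, *Hdac4* and *Mef2d*. The cause was not tested, beyond the smaller number of mice where libraries were left out.

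*Tbp* itself had a mean of 6.47, 5.62, 5.36 and 5.80 normalized CPM in vehicle- and AICAR-treated FVB and vehicle- and AICAR-treated HSALR mice, from 356 to 512 reads, and scaling to it moved the median log2 fold change of all genes to 0.28 between genotypes after vehicle, -0.13 for AICAR in HSALR muscle, 0.19 for AICAR in FVB muscle and -0.32 for the difference of the responses. Results of the 9 genes that turned direction were not called before or after. With *Tbp* scaling these were, on the log2 scale, *Hdac5* 0.016, *Hdac7* 0.075 and *Mef2a* 0.22 between genotypes after vehicle, *Mef2c* -0.095 for AICAR in HSALR muscle, *Hdac5* 0.046, *Hdac7* 0.16 and *Hdac9* 0.18 for AICAR in FVB muscle, and *Hdac5* -0.25, *Dach2* -0.34, *Mef2a* -0.050 and *Mef2d* -0.22 for the difference. Without the 6 libraries with *Krt14* they were *Hdac9* 0.12, *Mef2a* 0.093 and *Mef2d* -0.069 after vehicle, *Hdac5* 0.022 and *Mef2c* -0.068 for AICAR in HSALR muscle, *Hdac9* 0.38 in FVB muscle and *Dach2* -0.064 for the difference. With library-size scaling they were *Mef2c* -0.064 in HSALR muscle, *Sik1* -0.034 in FVB muscle and *Dach2* -0.0044 for the difference. With the epidermal covariate they were *Mef2c* -0.031 in HSALR and *Sik1* -0.12 in FVB muscle, and *Sik1* in FVB muscle was also -0.19 with limma, -0.0041 with at least 10 counts in every library and -0.0089 with only the groups compared.

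Fits without 1 mouse ranged, for the results that turned direction, from -0.14 to 0.027 for *Mef2a* after vehicle, and without S458 or S460 to -0.064 and -0.058 for *Mef2c* in HSALR muscle. In FVB muscle *Hdac9* became 0.10, 0.27 and 0.048 without S449, S450 and S448, *Mef2a* -0.029 without S449, and *Sik1* -0.84 and -0.25 without S447 and S445. For the difference of the responses *Sik1* became 0.11 without S447, and *Dach2* became -0.013 without S451, -0.017 without S463, -0.028 without S455, -0.090 without S462, -0.092 without S453, -0.11 without S449, -0.12 without S458 and -0.28 without S450. No paired analysis was possible because mice have numbers of their own and no group shares a number with another. The 3 mice in each FVB group limit those comparisons. *Dach2* had 59 to 386 reads per library and a coefficient of variation of 47.7% among vehicle-treated HSALR mice. The part of the counts in its wide intervals was not tested.

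Over all genes, the edgeR counts that serve as background moved too. Scaling to *Tbp* gave 5295 genes, 5053 of them higher, between genotypes after vehicle (4169 and 2385 in the reported fit), 1396 after AICAR (3379), 2768 with 697 higher for AICAR in HSALR muscle (4121 and 2114), 2150 with 2028 higher in FVB muscle (2039 and 1301) and 381 with 6 higher for the difference of the responses (107 and 32). Library-size scaling gave 1327 of 4289 higher in HSALR and 916 of 1806 in FVB muscle. Without the 6 libraries with *Krt14* the counts were 904 (645 higher) after vehicle, 899 and 697 for AICAR in HSALR and FVB muscle, and 0 for the difference (1485 at an unadjusted p under 0.05). For the difference, with all mice, DESeq2 gave 536 and the epidermal covariate 58, and fits without 1 mouse gave 15 (S448) to 371 (S460). The covariate gave 2056 in HSALR muscle, the 2 FVB groups alone 1164, fits without S449, S445 or S448 gave 1143, 1214 and 1344 in FVB muscle, and the fit without S447 gave 2214 between genotypes after AICAR.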
